A study of Rattus norvegicus with 36 samples.

Results

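The enzymes of the citrate cycle and of branched-chain amino acid breakdown were followed in rat soleus after spinal cord injury (SCI). The set was a list of 37 named genes in 3 roles, and each gene was read from the brightest of its probe sets with 1 gene symbol (by mean log2 signal of the 36 arrays). Of the 37, 36 had such a probe set, out of 14217 genes with 1 symbol on the array. They were 12 genes of the citrate cycle, 6 of anaplerosis and the malate-aspartate shuttle, and 18 of branched-chain breakdown. Fh, the gene of fumarase, had no probe set with 1 symbol, and Pcx and Mut are listed as Pc and Mmut in the RefSeq gene table.

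The data were 36 Affymetrix rat genome arrays of left soleus, a slow postural muscle, 1 array per rat and 6 per group. The rats were adult Sprague Dawley females that began the study at 16 weeks. Controls (CTR) were uninjured and untrained, and no sham operation was described. SCI3d, SCI8d and SCI14d rats were studied 3, 8 and 14 days after a moderate contusion at thoracic level T8 made by a 10 g weight falling 25 mm, and were not trained. SCI8d + TM and SCI14d + TM rats had the same injury and treadmill training from day 7 on, in 20 min sessions (3 sessions by day 8, or 5 days with 2 sessions a day by day 14), and their muscle was taken 8 h after the last session. The contusion is incomplete. Each rat gave 1 sample, so that p-values set group differences against the spread between arrays of different rats, pooled over the 6 groups. Injured rats also had anesthesia, laminectomy and analgesics. The methods give a dough diet for experimental animals and do not say whether controls had it. In comparisons with controls, the operation, the drugs and any difference in diet cannot be told apart from the contusion.

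The citrate cycle oxidizes acetyl-CoA in the mitochondrial matrix and passes electrons to the respiratory chain, and slow muscle, which works for long periods, is rich in its enzymes. The malate-aspartate shuttle moves electrons from cytosolic NADH into the mitochondria, and pyruvate carboxylase refills the cycle. Muscle is a main site where leucine, isoleucine and valine lose their amino group. Their keto acids are then oxidized by the branched-chain keto acid dehydrogenase complex, and separate enzymes break the products down to acetyl-CoA, acetoacetate or succinyl-CoA, so that this pathway runs into the citrate cycle.

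Sequence upstream of the genes was looked at because transcription factors of the ERR, NRF1 and GABP families are known to act on many genes of mitochondrial enzymes. RefSeq promoters (build GRCr8) were found for 32 of the 36 genes, and the 250 bases before each start were searched on both strands. The ERR letters TNAAGGTCA were in 0 of 32 promoters and in 1% of all 27457 promoters of the table. The NRF1 motif, whose matched letters are the capitals in Sucla2 and Hibadh below, was in 2 of 32 (Sucla2 and Hibadh) and in 4.17% of all. The GABP letters CCGGAAG were in 5 of 32 (Idh3b, Idh3g, Dlst, Mdh2 and Mut) and in 7.74% of all. Of the 5 genes, 4 were among the 11 citrate cycle genes with a promoter. No promoter of the 32 held letters of more than 1 kind. The promoters below are those 4 of the 7 with a match whose start is also the outer end of the gene. These 4 genes fell on day 8. Idh2 and Ogdh, with no match, also fell then, and Dlst, with a match, was not called. Whether a match goes with a fall was not tested. Capitals mark the match. The regions are chrX:156675483-156675732 on the minus strand for Idh3g, chr12:26543842-26544091 on the minus strand for Mdh2, chr15:55161644-55161893 on the plus strand for Sucla2 and chr4:83077820-83078069 on the minus strand for Hibadh. A match is only a description of the letters.
Idh3g: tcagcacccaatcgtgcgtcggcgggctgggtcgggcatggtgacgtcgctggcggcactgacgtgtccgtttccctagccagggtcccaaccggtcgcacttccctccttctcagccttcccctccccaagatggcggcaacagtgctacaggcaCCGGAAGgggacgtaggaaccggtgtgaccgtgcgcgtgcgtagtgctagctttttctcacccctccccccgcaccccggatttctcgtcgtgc
Mdh2: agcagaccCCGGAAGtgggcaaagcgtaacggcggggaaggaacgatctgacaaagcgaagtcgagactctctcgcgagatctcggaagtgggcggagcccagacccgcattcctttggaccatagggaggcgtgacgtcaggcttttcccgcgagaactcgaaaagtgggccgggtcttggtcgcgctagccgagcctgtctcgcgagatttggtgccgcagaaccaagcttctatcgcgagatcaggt
Sucla2: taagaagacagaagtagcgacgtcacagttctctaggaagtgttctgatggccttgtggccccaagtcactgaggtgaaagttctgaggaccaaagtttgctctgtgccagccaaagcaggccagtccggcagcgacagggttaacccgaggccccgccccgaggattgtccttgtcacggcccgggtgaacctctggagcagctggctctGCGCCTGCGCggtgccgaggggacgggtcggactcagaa
Hibadh: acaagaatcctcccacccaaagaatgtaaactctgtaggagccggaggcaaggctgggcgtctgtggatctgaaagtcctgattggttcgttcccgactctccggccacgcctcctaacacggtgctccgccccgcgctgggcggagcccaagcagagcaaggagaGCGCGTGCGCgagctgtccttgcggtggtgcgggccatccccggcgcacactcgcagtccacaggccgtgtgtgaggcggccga

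Some arrays stood apart from their group and are given first. A role-group mean is, for 1 array, the mean over the genes of a role of the log2 signal minus the control mean. The branched-chain mean of SCI8d replicate 1 was 0.170, while the other SCI8d arrays lay between -0.928 and -0.664. This array had the highest SCI8d signal for 33 of the 36 genes. The branched-chain mean of SCI14d replicate 2 was 0.414 against -0.649 to -0.256 in the others of its group, and it had the highest SCI14d signal for 31 of 36. SCI14d replicate 4 was the reverse, with 36 of 36 genes below the control mean and 28 below all 6 control arrays, and it was 1 of 3 arrays with a high ratio of the 3' to the 5' GAPDH control. SCI8d replicate 1 also had the highest mean of the fast fiber markers in its group (2.45) and the lowest of the fibroblast markers (-0.34). Its mean of the adipocyte markers (-0.785) was the highest of SCI8d as well. The part of these differences in the results was not tested, and values without these arrays are given where they matter.

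**Figure D1:**
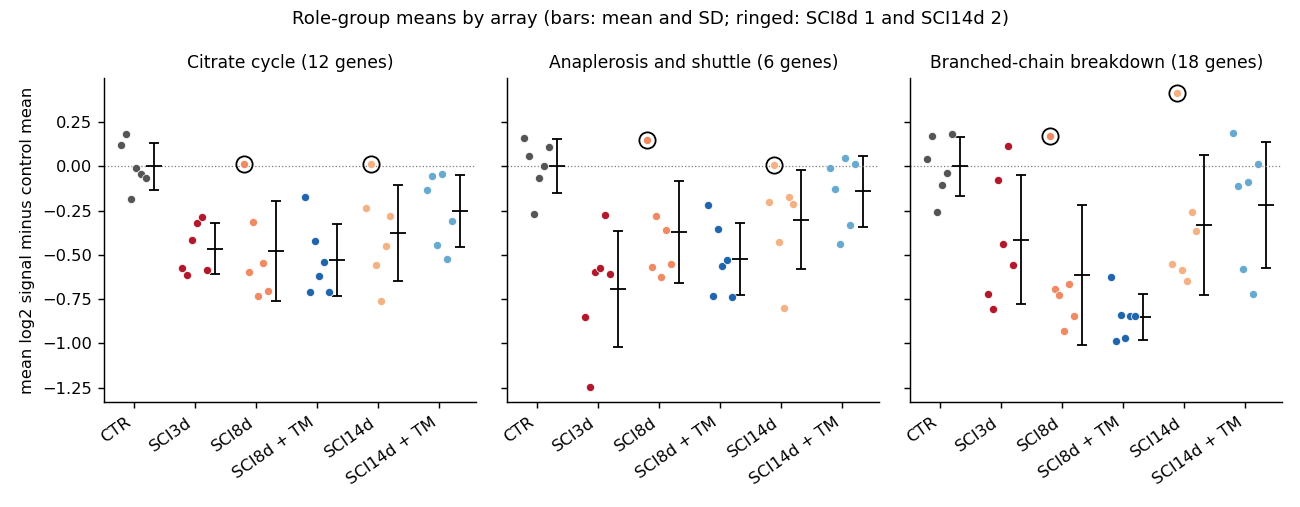
Mean log2 signal of each role's genes minus the control mean (y axis), for each array of the 6 groups (x axis). Points are arrays and bars the mean and SD of 6 arrays. SCI8d replicate 1 and SCI14d replicate 2, ringed, lay above the other arrays of their group in the branched-chain panel, at 0.170 and 0.414.

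After SCI, genes of each role fell and 0 of 36 rose on any of the 3 days. Called here means a limma adjusted p under 0.05 over all 31042 probe sets. On day 3, 13 of 36 genes fell (5 of 12 in the citrate cycle, 3 of 6 in the shuttle group, 5 of 18 in branched-chain breakdown), while 9.24% of all probe sets fell and 7.22% rose. On day 8, 17 of 36 fell (8, 1 and 8), against 3.28% of all that fell and 3.01% that rose. On day 14, 6 of 36 fell (3, 1 and 2), against 1.67% and 1.52%. Without SCI8d replicate 1, 25 fell on day 8. The day 14 count was 13 without SCI14d replicate 2 and 2 without SCI14d replicate 4 or CTR replicate 1, and with arrays scaled to Gapdh 0 fell and 1 rose. Among the 3105 brightest probe sets, the share that fell was higher than over all, at 17.6%, 9.24% and 7.5% on days 3, 8 and 14. All 36 genes have a mean signal above the 64th percentile, with Pcx the dimmest at 64.8. The median log2 fold change of the 36 was -0.43, -0.58 and -0.39 on the 3 days, and that of all probe sets -0.04, 0.04 and 0.08. In whole muscle, fewer cells of a type and less RNA per cell cannot be told apart.

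The role-group means were read by day. For SCI3d, SCI8d and SCI14d that of the citrate cycle was -0.466 ± 0.143, -0.480 ± 0.283 and -0.377 ± 0.273 (SD, 6 arrays each). The mean of the shuttle group was -0.693 ± 0.329, -0.372 ± 0.289 and -0.301 ± 0.279. That of branched-chain breakdown was -0.414 ± 0.363, -0.614 ± 0.397 and -0.332 ± 0.394. In the direct comparison of day 8 with day 3, 2 genes were lower (Bckdha and Pccb) and 1 was higher (Mdh1), against 3.14% and 3.66% of all probe sets. Among the 3105 brightest probe sets 8.73% were lower. Between days 3 and 14, 2 genes were higher (Mdh1 and Pcca) and 0 lower, against 7.99% and 4.94% of all probe sets. Here 17.9% of the brightest 3105 were lower. The count of genes for day 14 against day 3 turned with the scaling. Median centring gave 4 lower and 0 higher, scaling to Gapdh gave 11 higher, and the groups fitted alone gave 0. For day 8 against day 3, median centring gave 4 lower and 0 higher and scaling to Gapdh 1 lower. Between days 8 and 14, limma called 0 of 36 genes and 0 of all probe sets, with 2 genes and 5.15% of all probe sets higher at an unadjusted p under 0.05.

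**Figure D2:**
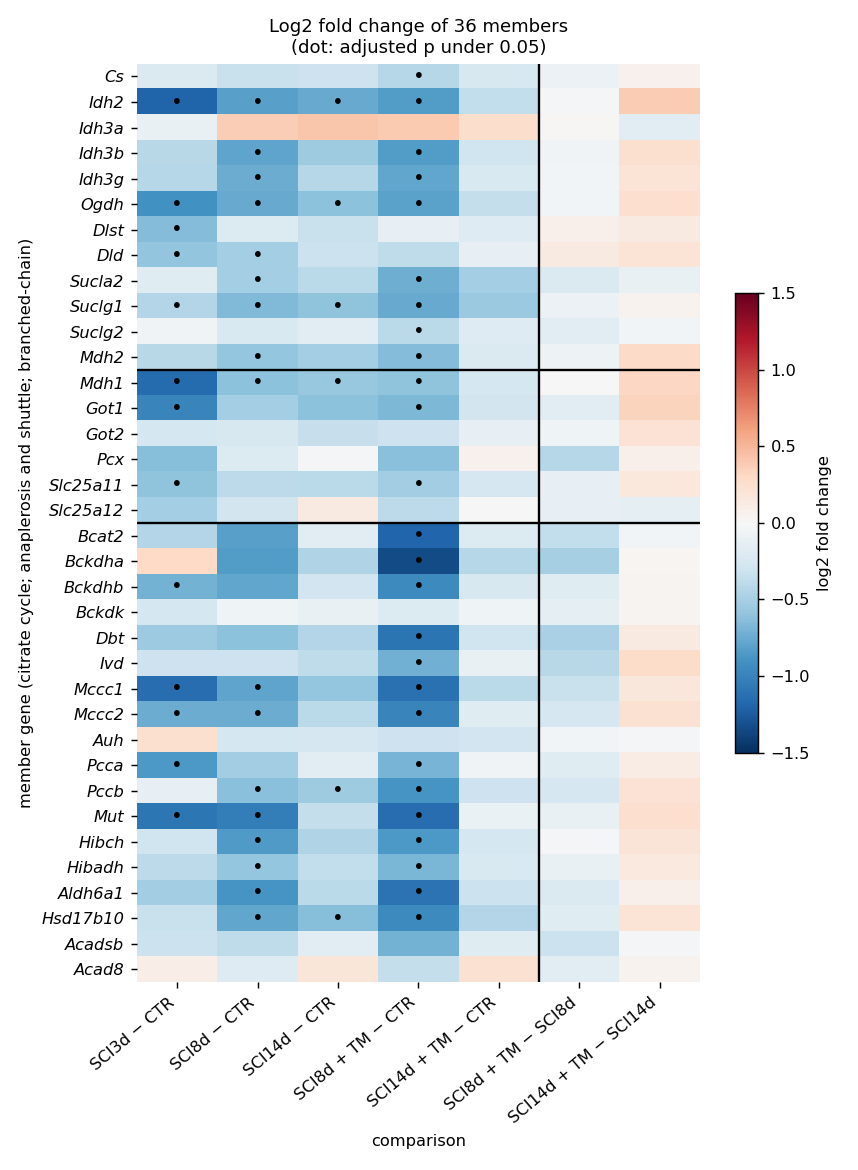
Log2 fold change (colour, limited at -1.5 and 1.5) of the 36 genes (y axis) in 7 comparisons (x axis), with lines between the 3 roles and before the comparisons of trained with untrained rats. Dots mark an adjusted p under 0.05. All dots stand on negative values, 26 of them in SCI8d + TM against controls and 0 in SCI14d + TM against controls and in both comparisons of trained with untrained rats.

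In every untrained SCI group 3 citrate cycle genes (Idh2, Ogdh and Suclg1) and 1 shuttle gene (Mdh1) fell. The day 3 call of Suclg1 was kept under 21 of 28 alternatives, and the day 14 call of Mdh1 under 17 of 28. Idh2 is the mitochondrial NADP-dependent isocitrate dehydrogenase. The Idh2 signal was 34020 to 49580 (median 40170) in controls, 12550 to 23840 (19090) in SCI3d, 19360 to 30920 (22420) in SCI8d and 16980 to 31690 (23860) in SCI14d. In SCI8d + TM it was 18990 to 31240 (22270). Every array of these 4 SCI groups was below every control, while SCI14d + TM, at 25970 to 37090 (31330), overlapped with controls. The log2 fold changes of Idh2 were -1.20, -0.81 and -0.75 on days 3, 8 and 14 (SE 0.16 each), with limma adjusted p-values of 2.2e-06, 0.00232 and 0.00791. Over all probe sets, 4.31%, 1.54% and 1.21% had all 6 arrays of SCI3d, SCI8d and SCI14d below all controls, and 6, 5 and 3 of the 36 genes did.

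Ogdh is the first subunit of the 2-oxoglutarate dehydrogenase complex, a main point of control of the cycle. Its signal was 21770 to 29810 (median 23410) in controls, and 9536 to 17440 (12180), 11180 to 20680 (13470) and 13010 to 18390 (16140) in SCI3d, SCI8d and SCI14d. Again no untrained SCI array reached the lowest control. SCI8d + TM was at 11720 to 17890 (13160), also below all controls, and SCI14d + TM at 15400 to 21820 (18860), just reaching them. Its log2 fold changes were -0.91, -0.76 and -0.61 (SE 0.14 each). The other subunits of this complex were Dlst and Dld. Dlst, which carries the succinyl transferase activity, fell on day 3 (-0.64, SE 0.16, limma adjusted p = 0.00416) and had a log2 fold change of -0.20 on day 8 (adjusted p = 0.523). Dld, the dehydrogenase subunit that several keto acid complexes share, fell on days 3 and 8 (-0.60 and -0.51) and was at -0.33 on day 14 (adjusted p = 0.186).

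Suclg1, the subunit that both forms of succinyl-CoA ligase share, fell by 0.44, 0.66 and 0.60 on the log2 scale on days 3, 8 and 14 (SE 0.14 each). Its signal was 11190 to 13760 (median 12460) in controls, 7527 to 11530 (9114) in SCI3d, 6052 to 10490 (7375) in SCI8d and 6716 to 11750 (7795) in SCI14d. SCI8d did not overlap with controls, and SCI3d and SCI14d each did with 1 array. In SCI8d + TM it was 6138 to 9469 (7352) and in SCI14d + TM 6728 to 9641 (8848), both below all controls. Sucla2, the subunit of the ATP-forming enzyme, fell on day 8 alone among the untrained groups (-0.51, SE 0.15, limma adjusted p = 0.0366), a call kept under 14 of 28 alternatives, and its second, dim probe set was at -0.42 and was not called. Suclg2, of the GTP-forming enzyme, had log2 fold changes of -0.05, -0.23 and -0.16, none of them called. Mdh2, the mitochondrial malate dehydrogenase, fell on day 8 (-0.58, SE 0.15, adjusted p = 0.0189). Cs, citrate synthase, often used as a measure of mitochondrial content, was not called on any of the 3 days, at -0.21, -0.34 and -0.31 (95% interval -0.61 to -0.06 on day 8), nor was any of its 3 other probe sets.

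The subunits of the NAD-dependent isocitrate dehydrogenase gave unlike values. Idh3a is its catalytic subunit, and Idh3b and Idh3g are the other subunits. Idh3b had a signal of 18720 to 23360 (median 20780) in controls and 8832 to 19490 (11710) in SCI8d. It fell on day 8, by 0.79 on the log2 scale (SE 0.17, limma adjusted p = 0.00422), and Idh3g by 0.74 (SE 0.20, adjusted p = 0.0187). Idh3a was at 2882 to 5774 (median 3904) in controls, 2712 to 4968 (3685) in SCI3d, 3463 to 8924 (4781) in SCI8d and 3841 to 6888 (5444) in SCI14d. It was 3493 to 6410 (5476) in SCI8d + TM and 3200 to 6050 (4793) in SCI14d + TM, so that all groups overlapped with controls. Its log2 fold change was 0.37 on day 8 and 0.42 on day 14 (SE 0.20, adjusted p = 0.295 and 0.267). It was the 1 gene of 36 with a value above 0 on day 8, when 46.9% of all probe sets were below 0.

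Subunits can be compared within each array, where the scaling of the array cancels. For 5 enzymes, 8 ratios of subunits were formed. They were chosen after the values of the single genes were seen and are given with no test, as the log2 ratio minus its control mean. The ratio of Idh3b to Idh3a was -0.491 to 0.442 in controls. It lay between -1.340 and -0.736 in SCI8d, -1.624 and -0.678 in SCI8d + TM and -1.341 and -0.592 in SCI14d, with all 6 arrays of each group below all controls, SCI8d replicate 1 included. In SCI3d it was -0.984 to 0.110 and 1 array was below all controls. For SCI14d + TM it was -1.114 to 0.081, with 3 arrays below. The ratio of Idh3g to Idh3a had means of -0.312, -1.111, -1.169, -0.842 and -0.482 in SCI3d, SCI8d, SCI8d + TM, SCI14d and SCI14d + TM.

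Mdh1 and Got1, the cytosolic enzymes of the malate-aspartate shuttle, were among the genes furthest from controls on day 3. The Mdh1 signal was 29370 to 38720 (median 34400) in controls, 10580 to 20270 (15190) in SCI3d, 18600 to 28410 (20650) in SCI8d and 16270 to 28580 (23010) in SCI14d. All arrays of these SCI groups were below all controls, and SCI3d was the lowest group by median. SCI8d + TM, at 18450 to 31100 (21340), and SCI14d + TM, at 24490 to 33660 (26780), overlapped with controls. Its log2 fold changes were -1.15, -0.61 and -0.57 (SE 0.15 each), and it was higher on days 8 and 14 than on day 3 (0.54, limma adjusted p = 0.0228, and 0.58, adjusted p = 0.0087). The calls against day 3 were kept under 18 of 28 alternatives for day 8 and 25 of 28 for day 14. A second probe set of Mdh1 gave log2 fold changes of -2.51, -1.93 and -1.57.

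Got1, the cytosolic aspartate aminotransferase, had a signal of 13780 to 23660 (median 17600) in controls and 5381 to 12370 (9392) in SCI3d, with no overlap, and fell by 0.99 (SE 0.19, limma adjusted p = 0.000266). On days 8 and 14 it was at -0.51 and -0.61 and was not called. Slc25a11, the carrier that exchanges malate for 2-oxoglutarate, fell on day 3 (-0.60, SE 0.14, adjusted p = 0.00293). Got2, the mitochondrial aminotransferase, Slc25a12, a carrier that exchanges aspartate for glutamate, and Pcx, pyruvate carboxylase, were called on no day, with day 3 values of -0.27, -0.51 and -0.63.

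**Figure D3:**
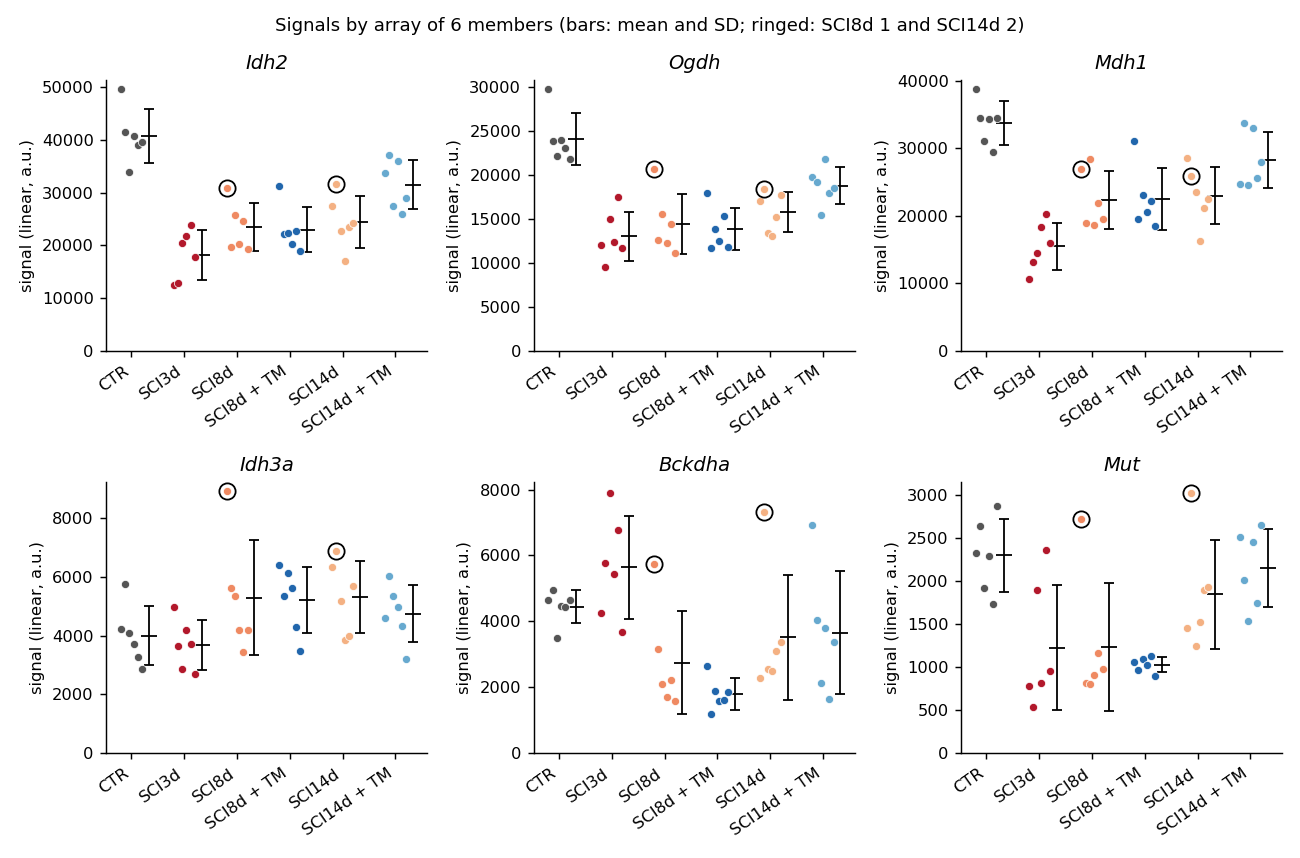
Linear signal (y axis, arbitrary units, from 0) of Idh2, Ogdh, Mdh1, Idh3a, Bckdha and Mut on each array of the 6 groups (x axis). Points are arrays, bars the mean and SD of 6 arrays, and rings mark SCI8d replicate 1 and SCI14d replicate 2. The untrained SCI arrays of Idh2, Ogdh and Mdh1 lie below all controls, those of Idh3a overlap with them, and for Bckdha the SCI3d median of 5612 is above the control median of 4555.

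Branched-chain breakdown is taken step by step. Bcat2 is the mitochondrial aminotransferase that removes the amino group, and Bckdha, Bckdhb and Dbt encode subunits of the keto acid dehydrogenase complex. The Bckdha signal was 3496 to 4960 (median 4555) in controls, 3687 to 7891 (5612) in SCI3d, 1574 to 5755 (2159) in SCI8d, 2291 to 7304 (2836) in SCI14d and 1647 to 6922 (3601) in SCI14d + TM. In SCI8d, 5 of the 6 arrays were below the lowest control, and replicate 1 was the exception. The log2 fold change of Bckdha was 0.30 on day 3 (SE 0.29, limma adjusted p = 0.555) and -0.84 on day 8 (adjusted p = 0.0784), and the difference between these days was -1.14 (SE 0.29, adjusted p = 0.0131). Without SCI8d replicate 1 the day 8 value was -1.08 (adjusted p = 0.00887). The call between days 3 and 8 was kept under 26 of 28 alternatives. A second, dimmer probe set of Bckdha was at 0.16 on day 3 and -0.70 on day 8, neither of them called.

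Bckdhb moved otherwise on day 3, falling by 0.71 (SE 0.25, limma adjusted p = 0.0467, a call kept under 11 of 28 alternatives). The ratio of Bckdha to Bckdhb within an array was 0.754 to 1.311 in SCI3d and -0.396 to 0.659 in controls, so that all 6 SCI3d arrays were above all controls. In SCI8d it was -0.653 to 0.289, with 0 arrays above. Its ratio to Dbt was likewise 0.427 to 1.704 in SCI3d against -0.782 to 0.399 in controls. Bckdk, the kinase that inactivates the complex, was not called in any comparison, and its log2 fold changes were -0.27, -0.06 and -0.11 on the 3 days (95% interval -0.30 to 0.17 on day 8). Bcat2 was at -0.82 on day 8 and was not called (adjusted p = 0.157). In SCI8d its signal was 920.2 to 4125 (median 999.2), where 4125 is replicate 1, and 1969 to 2379 in controls.

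Leucine breakdown passes through Ivd, the isovaleryl-CoA dehydrogenase, methylcrotonyl-CoA carboxylase (Mccc1 and Mccc2) and Auh, a hydratase. The Mccc1 signal was 1855 to 2685 (median 2501) in controls, 748.5 to 1958 (1078) in SCI3d and 1054 to 2241 (1293) in SCI8d. The highest arrays of both SCI groups overlapped with the controls. Mccc1 fell on day 3 (-1.14, SE 0.20, limma adjusted p = 8.01e-05) and day 8 (-0.79, SE 0.20, adjusted p = 0.0138), and Mccc2 by 0.74 on both days. On day 3 the ratio of Mccc1 to Mccc2 was below all controls on 6 of 6 arrays (-0.574 to -0.171, controls -0.150 to 0.216). Ivd and Auh were not called on any of the 3 days, and Auh was at 0.24 on day 3.

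Valine and isoleucine breakdown end in propionyl-CoA, which propionyl-CoA carboxylase (Pcca and Pccb) and methylmalonyl-CoA mutase (Mut) turn into succinyl-CoA. The Mut signal was 1736 to 2878 (median 2309) in controls, 542 to 2366 (887.3) in SCI3d, 803.5 to 2727 (944.3) in SCI8d and 1245 to 3024 (1715) in SCI14d. The medians of SCI3d and SCI8d were below the lowest control, but 2 SCI3d arrays and SCI8d replicate 1 lay within the control range. Mut fell on day 3 (-1.08, SE 0.27, limma adjusted p = 0.00464) and day 8 (-1.03, SE 0.27, adjusted p = 0.019), as did both of its other probe sets, and was at -0.36 on day 14 (adjusted p = 0.539).

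The 2 carboxylase subunits had unlike values by day. Pcca, the biotin-carrying subunit, fell on day 3 (-0.86, SE 0.19, limma adjusted p = 0.00141) and was at -0.17 on day 14, and it was higher on day 14 than on day 3 (0.68, adjusted p = 0.0145). Pccb was at -0.12 on day 3 (adjusted p = 0.658) and fell on day 8 (-0.62, SE 0.15, adjusted p = 0.0105) and day 14 (-0.53, adjusted p = 0.0421), the last call being kept under 14 of 28 alternatives. Its difference between days 3 and 8 was -0.50 (adjusted p = 0.0362) and was also kept under 14 of 28. Their ratio was -0.998 to -0.058 in SCI3d, with 5 of 6 arrays below all controls, and 0.263 to 0.534 in SCI14d, with 6 of 6 above all controls (-0.196 to 0.254). In SCI8d it was -0.027 to 0.288.

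**Figure D4:**
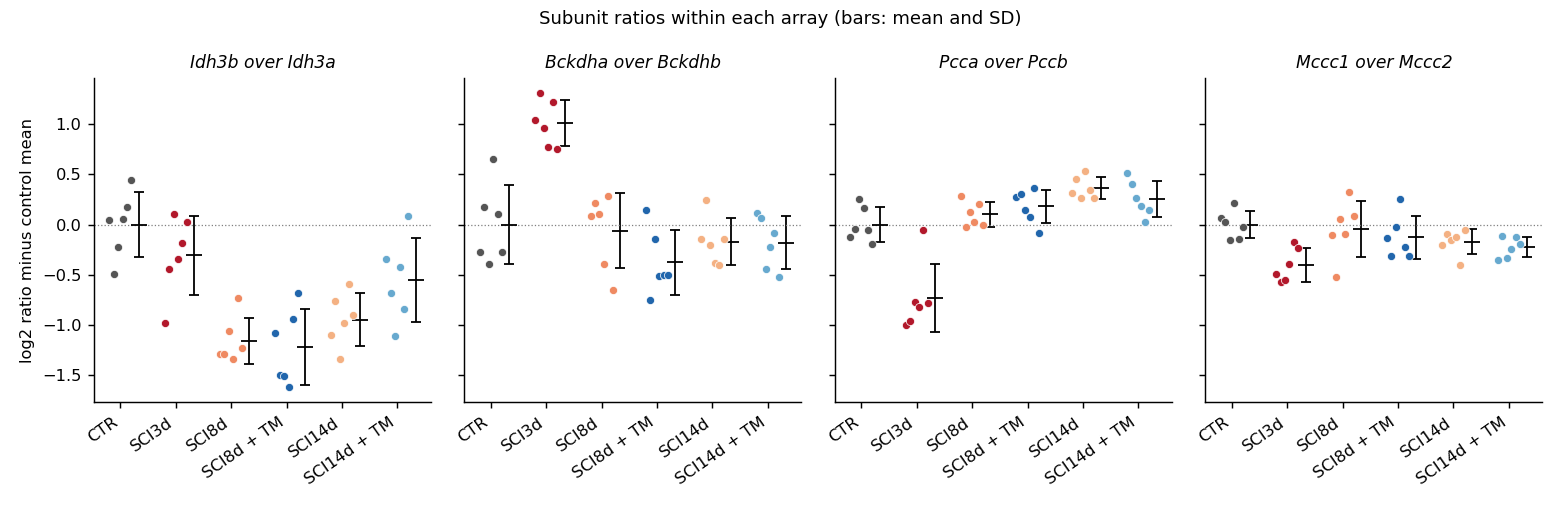
Log2 ratio of the signals of 2 subunits of an enzyme on the same array, minus the control mean (y axis), in the 6 groups (x axis). Points are arrays and bars the mean and SD of 6. Idh3b over Idh3a lies below all controls in SCI8d, SCI8d + TM and SCI14d, and Bckdha over Bckdhb above all controls in SCI3d, while Pcca over Pccb is negative in SCI3d and positive in SCI14d.

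Of the other enzymes of valine and isoleucine breakdown, 4 of 6 fell on day 8, against 3.28% of all probe sets and 9.24% of the 3105 brightest. Hsd17b10, the dehydrogenase of isoleucine breakdown, had a signal of 8637 to 11430 (median 10140) in controls and 4664 to 9861 (5561) in SCI8d, where 1 array overlapped with controls. It fell on day 8 (-0.78, SE 0.17, limma adjusted p = 0.00554) and day 14 (-0.64, SE 0.17, adjusted p = 0.032), and the day 14 call was kept under 16 of 28 alternatives. Hibch, Hibadh and Aldh6a1, which act one after another on valine, fell on day 8 by 0.85, 0.58 and 0.89 on the log2 scale, and on day 3 were at -0.30, -0.40 and -0.52 without being called. None of them passed the test between days 3 and 8, and the day 8 call of Hibch was kept under 14 of 28 alternatives. Aldh6a1 had a second probe set at -0.68 on day 8 that was not called. Acadsb and Acad8, acyl-CoA dehydrogenases of isoleucine and valine, were not called in any comparison.

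Trained rats were set against untrained rats of each day. After 3 sessions, on day 8, limma called 0 of 36 genes, and 0% of all probe sets, with 1 gene and 1.65% of all probe sets lower at an unadjusted p under 0.05 (Ivd, -0.41, SE 0.17, limma adjusted p = 0.9998). All 18 branched-chain genes and 32 of all 36 had a log2 fold change below 0, with a median of -0.13, while 45.4% of all probe sets and 59.3% of those 3105 were below 0. The count depended on SCI8d replicate 1, and 22 of 36 were below 0 without it. The citrate cycle median then went from -0.05 to 0.06. SCI8d + TM replicate 1, the highest array of its group for 25 of 36 genes, was kept there. The branched-chain mean was still lower in trained rats, at -0.852 ± 0.129 against -0.771 ± 0.112 (SD) without SCI8d replicate 1. The Ivd signal was 5045 to 7394 (median 5230) in SCI8d + TM and 5748 to 10600 (7403) in SCI8d, and the groups overlapped. For Dbt all 6 arrays of SCI8d + TM (866.7 to 1301) were below all of SCI8d (1319 to 2856), as were 0.0741% of all probe sets, and its log2 fold change was -0.48 (95% interval -0.98 to 0.01).

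After 5 days of training, on day 14, limma called 0 of 36 genes, against 0.00322% of all probe sets lower and 0% higher. At an unadjusted p under 0.05, 1 gene and 2.86% of all probe sets were higher (Idh2, 0.38, SE 0.16, limma adjusted p = 0.788). The Idh2 signal was 25970 to 37090 (median 31330) in SCI14d + TM and 16980 to 31690 (23860) in SCI14d, and the groups overlapped. Of the 36 genes, 29 were above 0 with a median of 0.14, while 54.2% of all probe sets and 38.8% of those 3105 were below 0. Without SCI14d replicate 2 the median was 0.26 and 33 were above 0. SCI14d replicate 4 was kept there. Its mean over the 36 genes was the lowest of SCI14d (-0.712), which lowers the untrained side, and a median without it is not given. The difference between both training effects (day 14 minus day 8) was above 0 for 34 of 36 genes (median 0.29), while 55.8% of all probe sets and 36.1% of those 3105 were below 0, and passed limma's test for 0. At an unadjusted p under 0.05, 2 genes were higher, as were 2.16% of all probe sets. Without SCI8d replicate 1 the median was 0.14. Ivd had the smallest p of this difference (0.68, SE 0.24, limma adjusted p = 0.918).

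The trained groups were also set against controls. In SCI8d + TM, 26 of 36 genes fell (9 of 12, 3 of 6 and 14 of 18) and 0 rose, while 6.48% of all probe sets rose, and 5.71% of all and 17.1% of those 3105 fell. In 17 genes, 12 of them in branched-chain breakdown, all 6 arrays were below all controls, against 3.61% of all probe sets. SCI8d had 17 genes called, or 25 without its replicate 1, and the difference between the trained and untrained rats is the one given above, with 0 called. The branched-chain mean was -0.852 ± 0.129 in SCI8d + TM and -0.614 ± 0.397 in SCI8d (SD, n = 6 each). Without SCI8d replicate 1 the latter was -0.771 ± 0.112 (SD, n = 5).

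By log2 fold change, Bckdha and Bcat2 were the lowest of the 36 genes in SCI8d + TM, followed by Mut, Mccc1, Aldh6a1 and Dbt. Bckdha had a signal of 1203 to 2639 (median 1745), below all controls, and fell by 1.34 (SE 0.29, limma adjusted p = 0.00243). Its second, dimmer probe set was at -0.57 and was not called. Bcat2 was at 805.3 to 1080 (median 1000), below all controls, and fell by 1.19 (SE 0.34, adjusted p = 0.0199). Mut, Mccc1, Aldh6a1 and Dbt fell by 1.14, 1.12, 1.11 and 1.09 on the log2 scale, and the second probe set of Dbt was at -0.34 and was not called. The 10 genes that were not called were Idh3a, Dlst, Dld, Got2, Pcx, Slc25a12, Bckdk, Auh, Acadsb and Acad8. Idh3a was at 0.39 (SE 0.20, adjusted p = 0.212), the 1 gene above 0, while 44% of all probe sets were below 0. Cs fell here by 0.43 (SE 0.13, adjusted p = 0.0314), a call kept under 19 of 28 alternatives. Both other bright Cs probe sets were at -0.31 and -0.34 and were not called (adjusted p = 0.219 and 0.216).

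**Figure D5:**
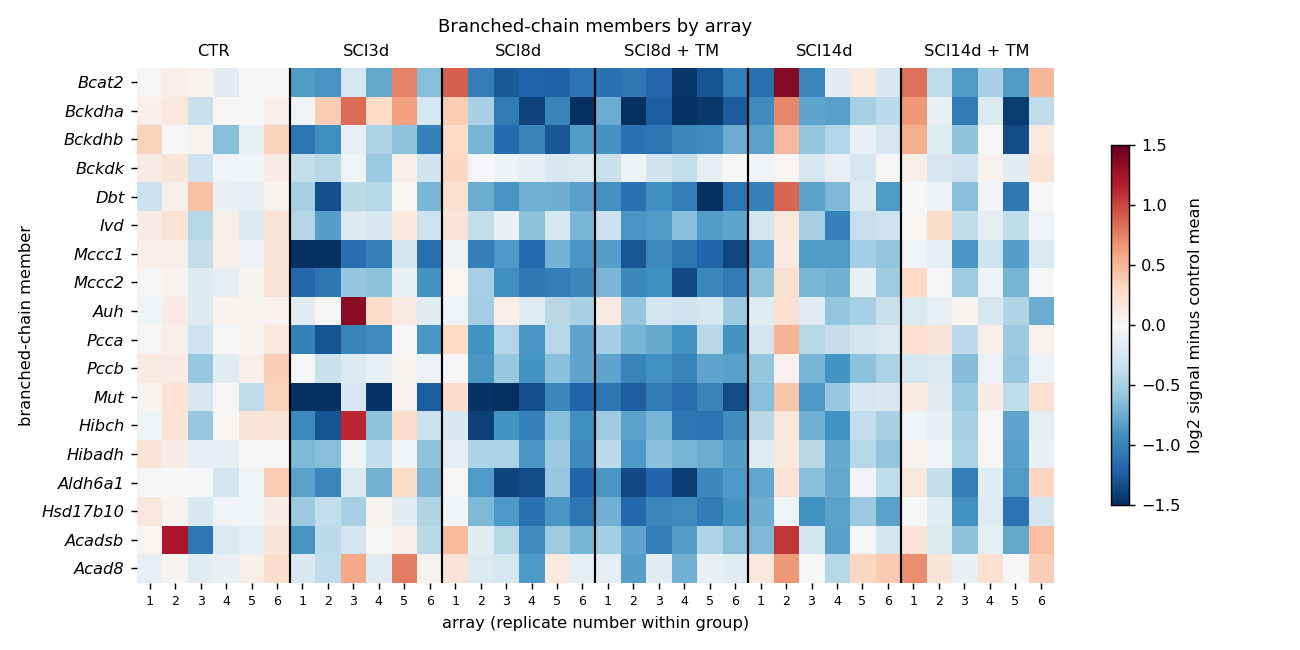
Log2 signal minus the control mean (colour, limited at -1.5 and 1.5) of the 18 branched-chain genes (y axis) on each of the 36 arrays (x axis, by group and replicate number). SCI8d + TM is blue for nearly all genes on all 6 arrays, and SCI8d replicate 1 and SCI14d replicate 2 stand apart from their groups with branched-chain means of 0.170 and 0.414.

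In SCI14d + TM, limma called 0 of 36 genes against controls, while 0.0999% of all probe sets fell. At an unadjusted p under 0.05, 7 genes and 4.88% of all probe sets were lower. The median log2 fold change was -0.23, and the smallest adjusted p was that of Suclg1 (-0.55, SE 0.14, adjusted p = 0.0744). Suclg1 was at 6728 to 9641 (median 8848), and Sucla2 at 7330 to 11520 (10660). Both were below all of their controls on all 6 arrays, as were 0.654% of all probe sets. The missing calls do not show that the genes were at the control level, since the 95% interval of Idh2 was -0.70 to -0.05 and that of Hsd17b10 -0.80 to -0.09.

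Other genes of the same pathways were read from lists that hold none of the 36. On days 3, 8 and 14, 8, 6 and 2 of 23 genes linked to the citrate cycle fell, and 0 rose. Over all probe sets 9.24%, 3.28% and 1.67% fell, and among the 3105 brightest 17.6%, 9.24% and 7.5%. On day 3 Gpt, the alanine aminotransferase, was at -1.41 (limma adjusted p = 9.06e-07), Slc25a10, the dicarboxylate carrier, at -1.13, and Sdhd, a membrane subunit of succinate dehydrogenase, at -0.94. Nnt, which makes NADPH in the matrix, fell on all 3 days, by 0.56, 1.04 and 0.89. In SCI8d + TM against controls 11 fell and 1 rose, against 5.71% and 6.48% of all probe sets. Of the 3105 brightest 17.1% fell there. In SCI14d + TM 0 of the 23 were called. Of 20 further branched-chain genes, 6, 6 and 4 fell and 2, 1 and 1 rose on days 3, 8 and 14. The shares of all probe sets that rose were 7.22%, 3.01% and 1.52%. Oxct1, which uses acetoacetate, and Acat1 fell on all 3 days, with Acat1 at -0.71, -1.05 and -0.99. Slc7a8, an amino acid transporter of the cell membrane, rose on all 3 days (1.06, 1.21 and 1.31). In SCI8d + TM 9 of the 20 fell and 2 rose. One of the 9 was Klf15, a factor known to act on branched-chain genes in muscle, at -1.57 (adjusted p = 0.00133), and Ppm1k, the phosphatase that activates the dehydrogenase complex, was at -1.09. Both genes have 3 probe sets, of which only the brightest was read. Between SCI8d + TM and untrained SCI8d rats, 0 of the 20 genes were called, with log2 fold changes of -0.61 to 0.58.

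Markers of the cells in the sample were read beside these results. For the counts here and below, 9.24%, 3.28% and 1.67% of all probe sets fell on days 3, 8 and 14. On the same days 7.22%, 3.01% and 1.52% rose. In SCI8d + TM 5.71% fell and 6.48% rose. A list of 10 soleus fiber markers held slow fiber genes such as Myh7 and Tnni1, and also Ckm and Acta1. Of these, 0 were called in any comparison with controls. Their summed signal was 484800 to 713700 in controls, 438100 to 685800 in SCI3d, 407800 to 738700 in SCI8d and 304300 to 567700 in SCI14d. All 10 lay at or above the 99.9th percentile of mean signal. The missing calls do not show that slow fiber content was unchanged. On day 14 all 10 were below 0, with a median log2 fold change of -0.32. Of 10 fast fiber markers, 1, 5 and 3 rose on days 3, 8 and 14 and 1, 1 and 0 fell, and their summed signal was 55660 to 293900 in controls and 175200 to 367300 in SCI8d. Their part in the falls of the 36 genes was not tested.

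Of 9 adipocyte markers, 6, 3 and 2 fell on days 3, 8 and 14, and 6 in SCI8d + TM, with a summed signal of 20010 to 48340 in controls, 8177 to 21590 in SCI3d and 9880 to 15630 in SCI8d + TM. Fat cells also express genes of branched-chain breakdown. Of 10 fibroblast markers, 1 fell and 0 rose on day 3, with 8 of 10 below 0 and a median log2 fold change of -0.30. On days 8 and 14, 3 and 3 rose, and 6 in SCI8d + TM, with summed signals of 177600 to 224500 in that group against 69410 to 215000 in controls. Of 10 macrophage markers, 1 rose and 1 fell on day 3 (Cd163 at 1.09 and Adgre1 at -1.30), 0 were called on days 8 and 14, and 2 rose in SCI8d + TM. Blood cell markers rose in 3 of 5 on days 3 and 8, and 1, 0 and 0 of 7 endothelial markers fell. Some markers were dim, with Lep at percentile 5.1 of mean signal and Hbe1 at 13.2. The part of these lists in the results was not tested.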

How the data were processed

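The deposited table held 1 MAS5 signal intensity per probe set and array. The authors made these values with Microarray Suite, which scales each array to a common trimmed mean, and filtered them in GeneSpring on 4 present calls, a filter not used here. Trimmed means over the deposited intensities lay between 800.3 and 800.4, and array medians between 167.2 and 235.6. There were 0 other columns of values. No depth applies to arrays, and the 6 arrays per group limit the precision.

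Without the 57 control probe sets, 31042 remained for tests on the log2 scale, with no offset. Of these, 20826 had 1 gene symbol, 436 several and 9780 none. A 6-group model was fitted in limma 3.58.1 (R 4.3.3) with an intensity trend (30 residual and 5.45 prior degrees of freedom), and p-values were adjusted by Benjamini-Hochberg over all probe sets (two-sided, threshold 0.05). The fit was tested on simulated data. Figures and promoter searches used Python 3.11.15, pandas 2.3.3 and matplotlib 3.10.9.

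All members could be named, with values in every group for those called in the most comparisons with controls (4 of 5) and some of those that depart from their role. Of the 36, 28 had 1 probe set and 8 several. The members, the other lists and the rule were chosen with earlier results of these data known. Alternatives were quantile normalization, median centring, scaling by Gapdh, an offset of 32, no intensity trend, leaving out the 40% dimmest probe sets, array weights, groups fitted alone, a replicate block, the methods' t-test, other probe set rules, terms for the GAPDH 3'/5' ratio and for replicates 5 and 6 against the others, and leaving out arrays.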

Additional observations from a re-analysis of the deposited data

Results flagged for a closer look

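Among 240 groups of 6 arrays (36 genes and 4 means in 6 groups), 23 had 1 array whose gap to its neighbour was above Dixon's 95% limit as a share of the group's range. Chance flags about 1 in 20 groups. Values are log2 signals for genes.

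SCI8d replicate 1 was the high array for Sucla2 (13.91), Slc25a12 (13.35), Bcat2 (12.01), Bckdhb (12.46), Dbt (11.48), Pccb (12.15) and Mut (11.41), for the mean of all members (0.1144) and for the branched-chain mean (0.1703). SCI14d replicate 2 was high for Bckdha (12.83), Mccc1 (11.35), Pcca (11.27) and the branched-chain mean (0.414). CTR replicate 3 was low for Slc25a11 (13.34), Bckdha (11.77) and Hibch (10.93). The others were spread over arrays. Idh2 was high in SCI8d + TM replicate 1 (14.93), Ogdh in CTR replicate 1 (14.86), Dlst in SCI8d replicate 3 (13.16), Auh in SCI3d replicate 3 (12.82) and Pcca in SCI3d replicate 5 (10.74). Got1 was low in SCI14d replicate 4 (12.69) and Dbt in SCI8d + TM replicate 5 (9.759).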

How the results depend on the processing

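No called member changed its direction under any alternative, and the count of 26 in SCI8d + TM against controls stayed within 1.5 times (20 to 33, and 24 to 29 with 1 array left out). Single members lost their call there, with Cs at -0.10 and Dbt at -0.72 by the mean of their probe sets, and with Bckdha at -0.57, Dbt at -0.34 and Sucla2 at -0.24 by the second probe set. The cause of the moves below was not tested. On day 3 the methods' unadjusted t-test called 23 members (13 in the model), and leaving out 1 array 11 to 16. On day 8 (17) the t-test called 8 after Benjamini-Hochberg and 27 unadjusted, and leaving out 1 array 10 to 25, with 25 without SCI8d replicate 1, 11 without replicate 2 and 10 without replicate 4. Day 14 (6) gave 12 under median centring, 1 under Gapdh scaling, which rose (where the median of all probe sets went from 0.08 to 0.32), 10 without the dimmest 40%, 12 with array weights, 2 and 19 with the t-test adjusted and unadjusted, and 2 to 13 with 1 array left out (CTR replicate 1 2, CTR replicates 2 and 6 3, SCI14d replicate 2 13, replicates 3 and 6 3, replicate 4 2). For training, the unadjusted t-test called 2 on day 8 and 2 on day 14, and leaving out 1 array 0 to 0. SCI14d + TM against controls (0) gave 1 without the dimmest 40%, 2 with weights, 1 with groups alone, 9 with the unadjusted t-test, 2 without the 3 arrays of high GAPDH ratio and 1 with a term for replicates 5 and 6. Day 8 against day 3 (3) gave 1 with Gapdh, groups alone or the second probe set, 0 and 5 with the t-test adjusted and unadjusted, and 1 to 5 with 1 array left out. Day 14 against day 3 (2) gave 5 with quantile normalization, 4 with median centring (all lower), 11 with Gapdh, 7 without the dimmest 40%, 0 with groups alone, 0 and 6 with the t-test, 6 with 1 probe set per gene, with the mean of probe sets and without the 3 GAPDH arrays, 4 with the GAPDH covariate, 5 with the term for replicates 5 and 6 and 2 to 7 with 1 array left out.

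The replicate block called 12, 16 and 6 members on days 3, 8 and 14, 26 in SCI8d + TM against controls, 4 for day 8 against day 3 and 4 for day 14 against day 3. Over all probe sets, deviations of same-numbered arrays from their group means correlated at -0.10 to 0.16. The mean was 0.035 for SCI8d + TM with SCI8d. Among the members, replicate 1 had the highest signal for 33 of 36 in SCI8d and for 25 of 36 in SCI8d + TM. The labels name no pairing, and the numbers were not taken as pairing. Whether same-numbered arrays share a source of variation in the members was not tested. MAS5 values of dim probe sets are noisy, and the members lay at or above the 64.8th percentile of mean signal. A missing call does not show an unchanged gene.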
